A study of Bos taurus with 6 samples.

Results

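The genes studied here code for 41 chromatin regulators, and the measurements are junction reads of the circular RNAs (circRNAs) made from them in subcutaneous fat of Qinchuan cattle. A gene counted as read when the deposited annotation named it as the host of at least 1 circRNA. Of the 41 genes, 33 were read, and they hosted 158 of the 14274 circRNAs in the data. These 158 circRNAs held 3676 junction reads, which was 1.55% of all junction reads. Each of the 158 was annotated to 1 gene alone. The 41 genes were 14 methyltransferases, 8 demethylases, 4 acetyltransferases, 2 deacetylases and 13 chromatin remodelling factors. The libraries came from fat of 3 calves aged 6 months and 3 adults aged 24 months, all of 1 breed, and the labels name neither a treatment nor the sex of the animals. Fat was collected at an abattoir, so each library is bulk tissue with all of its cell types, where fewer cells of a type and less RNA per cell cannot be told apart. The labels speak of 6 samples and do not say in words that each came from a different animal, so the p-values measure the spread between these samples.

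CircRNAs form when the spliceosome joins the end of an exon back to the start of the same or an earlier exon, which leaves a closed ring that exonucleases digest poorly. A read that crosses this back-splice junction counts the ring and not the messenger RNA of the gene. Chromatin regulators write, erase or read chemical marks on histones and DNA, or use ATP to move nucleosomes. Methyltransferases and acetyltransferases add marks, demethylases and deacetylases remove them, and remodelling complexes open or close the DNA around them. In fat, such enzymes take part in switching on and holding the gene programme of the adipocyte. A change in junction reads of such a gene says nothing by itself about the amount of its protein.

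The libraries held 35616 to 47298 junction reads, and levels are given as CPM, the junction reads of a circRNA or gene scaled to 1000000 junction reads of its library. A junction is a single point, so no length term applies. A count of 3 reads equals 63.4 to 84.2 CPM, and a gene at 0 may still be present below that level. The deposited counts hold no lone read of a circRNA in a library, so a 0 may also stand for a lone read. What a 0 can hide may then lie above that level, more so for genes summed over several circRNAs. Adipocyte genes gave 3869 to 5307 CPM in calves and 2601 to 3505 CPM in adults from 9 of 17 listed markers, with PPARG and CD36 read in every library and FABP4 and LIPE at 0. Skeletal muscle genes reached 6279 CPM in adult 2 and at most 80.6 CPM in the other libraries, with 5 of 18 markers read and most of the reads from NEB. Immune genes gave 53.7 to 505 CPM in calves and 1212 to 11510 CPM in adults, from 3 of 13 markers, nearly all of it the macrophage gene ADGRE1, with PTPRC and CD68 at 0. Fibroblast genes gave 53.7 to 101 CPM in calves and 465 to 1028 CPM in adults, from 4 of 8 markers, mostly VCAN, with PDGFRA and COL1A2 at 0. Endothelial genes gave 1011 to 1102 CPM in calves and 1265 to 1395 CPM in adults, from 7 of 8 markers. Against the sums of their lists, CD36 was higher and FLT1 lower in CPM in every adult than in any calf. The part of these cell types in any result below was not tested.

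One chromatin regulator passed the test between the ages. Junction reads were summed per host gene and compared with edgeR's quasi-likelihood test, and an adjusted p under 0.05 counted as a call. Among all 719 host genes with enough reads to test, 12.4% were called, with 5.84% higher in adults and 6.54% lower. Of the 14 chromatin regulators tested, 1 was higher in adults (KAT6A) and 0 were lower, and 3 had an unadjusted p under 0.05 (KAT6A, ASH1L and ARID2). Their median log2 change, adult over calf, was -0.11 against 0.01 for all tested host genes, with 7 genes above 0 and 7 below. The CPM of the ages did not overlap for 4 of the 14, where 33.5% of all tested host genes were so separated. At the level of single circRNAs, 19.0% of the 663 tested were called, 8.6% higher in adults and 10.4% lower. Of 15 tested from these genes 1 was called higher, the main KAT6A circRNA, and 0 lower. The ages did not overlap for 4 of the 15, against 39.4% of all tested circRNAs. The authors' deposited table of circRNAs that differ by age lists 81 circRNAs, where the data hold 14274. From the 41 genes it lists 0 of 158. At so small an overall share, this is no result about these genes.

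**Figure D1:**
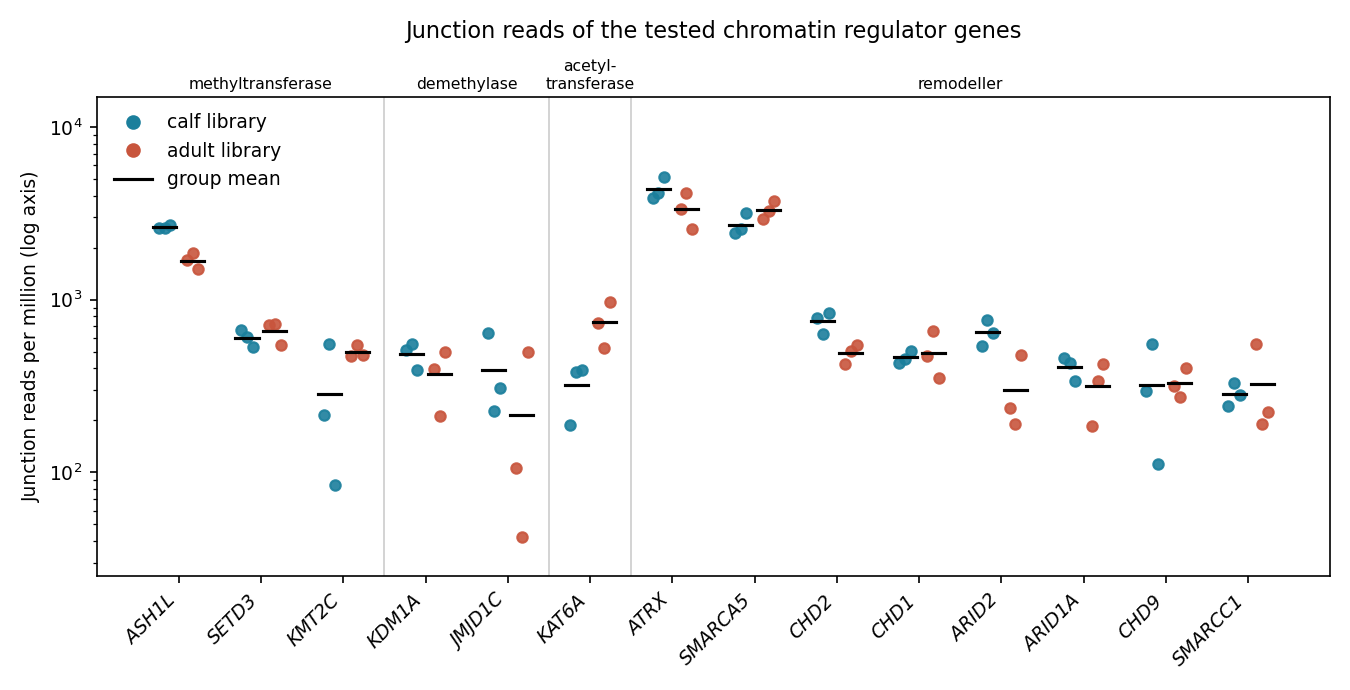
CPM of junction reads (log axis) of the 14 tested chromatin regulator genes, grouped by class. Each point is 1 library, calves to the left and adults to the right of each gene, and black bars are group means. KAT6A in adults lay above all 3 calf libraries, while ASH1L, CHD2 and ARID2 in adults lay below them.

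By class, remodelling factors held 62.6% of the junction reads of the 33 genes and methyltransferases 24.1%. Demethylases held 7.07%, acetyltransferases 5.14% and deacetylases 1.14%. The summed level of the methyltransferases was 4224 ± 194 CPM for calves and 3234 ± 447 CPM for adults (± is SD over 3 libraries per age), and the 3 adult libraries lay below the 3 calf libraries. Among the genes matched by symbol, ASH1L made nearly all of this difference. Without its circRNAs, a sum taken after the data were seen, calf libraries stood at 1579 ± 186 CPM (SD, n = 3). Adult libraries then stood at 1551 ± 287 CPM (SD, n = 3), and the ages overlapped. These sums leave out NSD2 and NSD3, which the annotation lists under older symbols. With those counted, the class difference was larger and ASH1L made a smaller part of it (values below). Acetyltransferases reached 595 ± 143 CPM in calf fat and 980 ± 171 CPM in adult fat, with every adult library higher. That order came from a single circRNA: without the main KAT6A circRNA adults stood 26.4 CPM lower (a difference of -26.4 CPM). Demethylases stood at 1262 ± 241 and 970 ± 367 CPM, and deacetylases at 177 ± 64.8 and 180 ± 86.8 CPM, both with overlapping ages. For remodelling factors the calf level was 10170 ± 1090 CPM and the adult level 9235 ± 375 CPM, and the ages overlapped there too. No test was run on these sums.

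**Figure D2:**
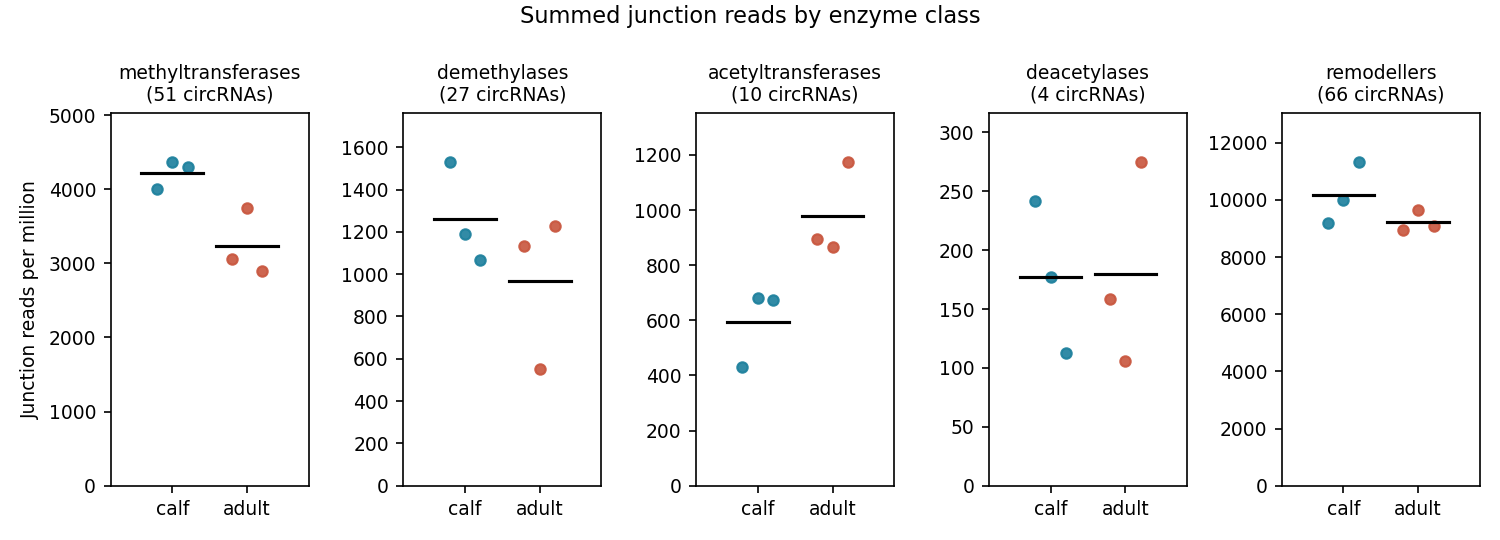
Summed CPM of each class in each library, with a separate axis from 0 for each class. Points are libraries and black bars are group means. Methyltransferase libraries of adults lie at 2902 to 3742 CPM, below the calves at 4003 to 4372 CPM, and acetyltransferase libraries of adults at 867 to 1176 CPM lie above the calves at 430 to 682 CPM.

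Methyltransferases were led by ASH1L, which codes for a SET domain enzyme of the trithorax group that methylates histone H3. It had 97, 103 and 97 junction reads in the calves and 64, 88 and 60 in the adults. Adult libraries were lower in CPM without overlap, at 1683 ± 180 CPM against 2644 ± 68.7 CPM (SD, n = 3). The log2 change of -0.58 ± 0.22 (SE) had an unadjusted p of 0.0188 but missed the threshold after adjustment (edgeR adjusted p = 0.0939). The gene had 14 circRNAs and ranked 48 by reads among 4700 host genes.

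The ASH1L circRNAs did not all show the same pattern. The most abundant, novel_circ_0009712 on chromosome 3 (15227942 to 15246008), had 23, 24 and 23 reads in calves and 23, 30 and 21 in adults, with a log2 change of 0.00 ± 0.29 (SE). The next, novel_circ_0009705 (15176729 to 15177250), had 18, 32 and 25 reads in calves and 13, 21 and 16 in adults. In CPM its ages did not overlap, with a log2 change of -0.66 ± 0.34 (SE) that was not called (edgeR adjusted p = 0.2). Of the other tested ASH1L rings, novel_circ_0009713 (15227942 to 15254649) and novel_circ_0009706 (15176729 to 15211655) had log2 changes of -0.20 ± 0.47 and -0.77 ± 0.55 (SE), and in both the ages overlapped. A ring that starts where novel_circ_0009705 does, novel_circ_0009708 (15176729 to 15254649), had 21, 0 and 11 reads in calves and 0 in every adult. It was too sparse for the filter on low counts, and calf 2 had none. When all circRNAs were tested with no filter it passed as lower in adults (adjusted p = 0.000215).

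Whether the balance among circRNAs of a gene differed between ages was tested with edgeR's diffSpliceDGE, chosen after the values were seen, over 71 genes with several tested circRNAs, of which 2.82% were called. ASH1L was not called (adjusted p = 0.624). Without calf 2 it was (adjusted p = 0.00337), a fit in which novel_circ_0009708 entered the table. That ring passed the filter there only through the remaining calves, as calf 2 was the calf without it. Leaving calf 2 out thus favoured a call, and nothing is concluded from that fit.

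SETD3, first described as a histone methyltransferase and later as the enzyme that methylates actin, had 25, 24 and 19 reads in calves and 27, 34 and 22 in adults. The ages overlapped, and the log2 change was 0.19 ± 0.30 (SE; 95% interval -0.46 to 0.85). A single ring, novel_circ_0006430 on chromosome 21 (66118263 to 66125084), held 98.7% of its reads.

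KMT2C, which codes for the catalytic subunit of a complex that methylates histone H3 at enhancers, had 8, 22 and 3 reads in calves and 18, 26 and 19 in adults. Calf libraries varied from 84.2 to 556 CPM and the adults from 474 to 550 CPM, so calf 2 overlapped the adults. The test did not call this gene, at a log2 change of 0.84 ± 0.52 (SE; edgeR adjusted p = 0.328). It was 1.76 without calf 2 (adjusted p = 0.0919) and 0.43 without calf 3 (adjusted p = 0.579). Its most abundant circRNA, novel_circ_0010333 (chromosome 4, 115514090 to 115518645), had 0, 3 and 0 reads in calves and 12, 10 and 6 in adults. These counts were below the filter, so that circRNA was not tested. A longer ring from the same start, novel_circ_0010334, had 4, 4 and 3 reads in calves and 3, 3 and 2 in adults.

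The other methyltransferases that were read had 3 to 36 reads in all and were not tested. KMT2E had 2, 10 and 15 reads in calves and 0, 9 and 0 in adults. NSD1 had 9, 5 and 5 reads in calves and 0, 2 and 8 in adults. SETD2, which codes for the enzyme that methylates histone H3 along transcribed genes, had 4, 7 and 8 reads in calves and 2, 0 and 0 in adults. EZH1 and EZH2 code for the alternative catalytic subunits of the Polycomb repressive complex. EZH1 had 2, 0 and 0 reads in calves and 2, 8 and 5 in adults, while EZH2 had 2, 2 and 6 in calves and 3, 7 and 2 in adults. SETD5 had 3 reads, all in adult 2.

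No circRNA was listed for KMT2A, KMT2D, NSD2, NSD3 or DNMT3A, the last of which codes for a DNA methyltransferase. Of 4790 genes with a circRNA, 4564 could be given a symbol, so a circRNA of a gene without a symbol would be missed. For the NSD genes the absence depends on which symbol is used. The deposited annotation lists WHSC1L1, an older symbol of NSD3, with 10 circRNAs and 28, 11 and 0 reads in calves and 0, 20 and 4 in adults (log2 change -0.83 ± 1.05, edgeR adjusted p = 0.655). It also lists WHSC1, an older symbol of NSD2, with 4 circRNAs and 25, 12 and 5 reads in calves and 5, 8 and 3 in adults, too few to test. Adding both, an alternative chosen after the data were seen, moved the methyltransferase difference from -990 to -1405 CPM, adult minus calf. ASH1L then no longer made nearly all of that difference.

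Among the demethylases, KDM1A and JMJD1C were tested and neither was called. KDM1A, which codes for the flavin-dependent lysine demethylase LSD1, had 19, 22 and 14 reads in calves and 15, 10 and 20 in adults. The ages overlapped, and the log2 change was -0.36 ± 0.39 (SE; 95% interval -1.22 to 0.50). Its main circRNA, novel_circ_0009035 (chromosome 2, 130397186 to 130404270), held 62.0% of the reads. JMJD1C, a Jumonji-domain gene, had 24, 9 and 11 reads in calves and 4, 2 and 20 in adults. Adult 3 stood apart from the other adults and close to calf 1, and the gene was not called, at a log2 change of -0.83 ± 0.72 (SE; edgeR adjusted p = 0.495). With 1 library left out the change ran from -2.33 without adult 3 (adjusted p = 0.0645) to -0.29 without adult 2 (adjusted p = 0.847), and none of the 6 fits passed.

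KDM5B, a demethylase of histone H3, had 62 reads, with 11, 8 and 7 in calves and 18, 11 and 7 in adults, but was not tested. KDM6A had 13 reads, TET2, whose product oxidises methylated cytosine, had 10, and KDM5A had 5 reads, all in adults 1 and 2. KDM2A and KDM4C had no circRNA listed.

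KAT6A was the one acetyltransferase with enough reads to test and the one gene called. It codes for a MYST family enzyme that acetylates histone H3. The gene had 7, 15 and 14 junction reads in calves and 28, 25 and 39 in adults, which was 320 ± 115 CPM against 747 ± 224 CPM (SD, n = 3). Every adult library was above every calf library. The log2 change was 1.27 ± 0.38 (SE; 95% interval 0.44 to 2.09; edgeR adjusted p = 0.0483), close to the threshold. Nearly all of it was novel_circ_0008205, with 98.4% of the reads, on chromosome 27 (36575381 to 36584201), a ring with 6 stretches outside the listed introns that sum to 879 bases. This circRNA alone had 7, 15 and 14 reads in calves and 28, 25 and 37 in adults, a log2 change of 1.26 ± 0.38 (SE; adjusted p = 0.0389).

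The KAT6A call was sensitive to the libraries and the method. Without calf 1, the lowest library, the host gene change was 0.97 (adjusted p = 0.183), and without adult 3, the highest, it was 1.05 (adjusted p = 0.108). It was also lost without calf 2 (0.109), calf 3 (0.0528) or adult 1 (0.0906). Without adult 2, the library with muscle reads, it stayed called (log2 change 1.49, adjusted p = 0.0456). DESeq2 gave nearly the same change, 1.28, with an adjusted p of 0.108. The circRNA alone lost its call in the same 5 fits without 1 library (adjusted p 0.0685 to 0.162) and kept it without adult 2 (0.0471). It also lost it with DESeq2 (0.124), with no filter (0.292) and with a mean of at least 10 reads (0.0641). Summed fibroblast, immune and endothelial marker CPM was also higher, and summed adipocyte marker CPM lower, in all 3 adult libraries than in any calf. Single markers went the other way. The adipocyte gene CD36 had 34, 50 and 56 reads in calves and 90, 76 and 105 in adults. The endothelial gene FLT1 had 21, 23 and 17 reads in calves and 14, 16 and 17 in adults. COL1A1, DCN and FBN1 of the fibroblast list had 2, 3 and 2 reads, each in 1 calf. These counts are at or below the 3-read floor and too few to give a direction. The part of these cell types in the KAT6A difference was not tested.

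The deposited annotation also counts non-junction reads, which fall in the circRNA's interval without crossing its junction. The sources used here do not say how such reads were defined. For the KAT6A circRNA they numbered 418, 384 and 285 in calves and 159, 435 and 527 in adults, and the ages overlapped. Per 100 non-junction reads there were 1.68, 3.91 and 4.91 junction reads in calves and 17.6, 5.75 and 7.02 in adults. All adults were higher, with adult 1 apart from the others. The log2 ratio differed by 1.35 ± 0.49 (SE), which did not pass (limma unadjusted p = 0.0144, adjusted p = 0.224).

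**Figure D3:**
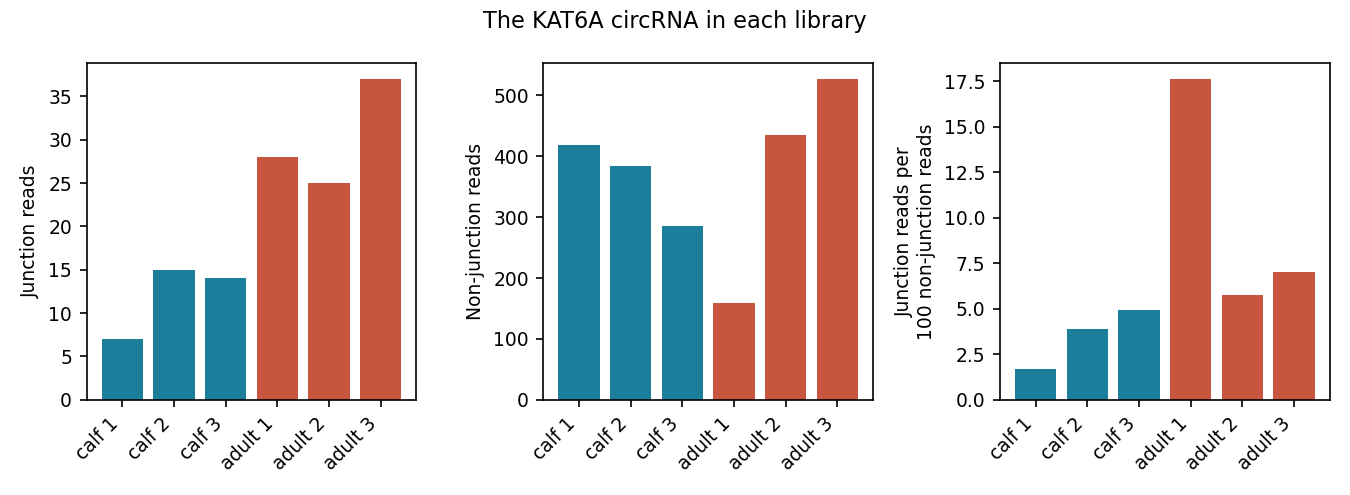
The main KAT6A circRNA in each library, as junction reads, non-junction reads and junction reads per 100 non-junction reads, each on an axis from 0. Bars are single libraries. Junction reads are 25 to 37 in adults and 7 to 15 in calves, and the ratio of adult 1, 17.6, stands above the rest.

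The other acetyltransferases gave few reads. CREBBP, which codes for the coactivator CBP, had 9, 12 and 7 reads in calves and 6, 11 and 8 in adults from 6 circRNAs, none of them in all libraries. Its paralogue EP300 had 3 reads in calf 3, and KAT6B had 5 reads in adult 2. The deacetylases HDAC4 and HDAC9, both of class IIa, had 29 and 13 reads and were not tested. HDAC4 had 6, 7 and 2 reads in calves and 3, 5 and 6 in adults.

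Remodelling factors gave the most abundant rings. ATRX, SMARCA5 and the methyltransferase gene ASH1L together held 58.4% of the reads of the 33 genes. ATRX codes for a SNF2 family ATPase that, with DAXX, places a variant of histone H3 at repetitive DNA. It had 145, 164 and 182 reads in calves and 127, 195 and 103 in adults and ranked 18 of 4700 host genes. Adult 2 lay within the calf range, so the ages overlapped, and the log2 change was -0.31 ± 0.24 (SE; 95% interval -0.84 to 0.21; edgeR adjusted p = 0.435).

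ATRX gave 14 circRNAs that reused a few splice sites. Of them, 5 started at 79761000 on chromosome X and held 67.8% of the gene's reads, and 5 ended at 79786582 and held 77.1%. The ring that joins these sites, novel_circ_0014178, had 83, 78 and 96 reads in calves and 50, 88 and 45 in adults. In CPM the adults were lower without overlap, at 1435 ± 381 against 2299 ± 367 (SD, n = 3). This ring's log2 change was -0.58 ± 0.26 (SE), with an unadjusted p of 0.0465, and was not called (edgeR adjusted p = 0.144).

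The smallest ring from the same start, novel_circ_0014175 (79761000 to 79762000), had 5, 7 and 2 reads in calves and 11, 15 and 14 in adults. It was higher in every adult, 319 ± 30.2 CPM against 122 ± 61.2 CPM (SD, n = 3). The test did not call it, at a log2 change of 1.42 ± 0.54 (SE; adjusted p = 0.0869). Of the other rings, novel_circ_0014180 (79771562 to 79786582) had 38, 38 and 37 reads in calves and 37, 60 and 41 in adults, and its ages overlapped. The longer novel_circ_0014179 was absent from calf 1 and adult 3 and had 14 to 16 reads in each of the other 4 libraries. The test of the balance among ATRX circRNAs did not call the gene (adjusted p = 0.369).

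**Figure D4:**
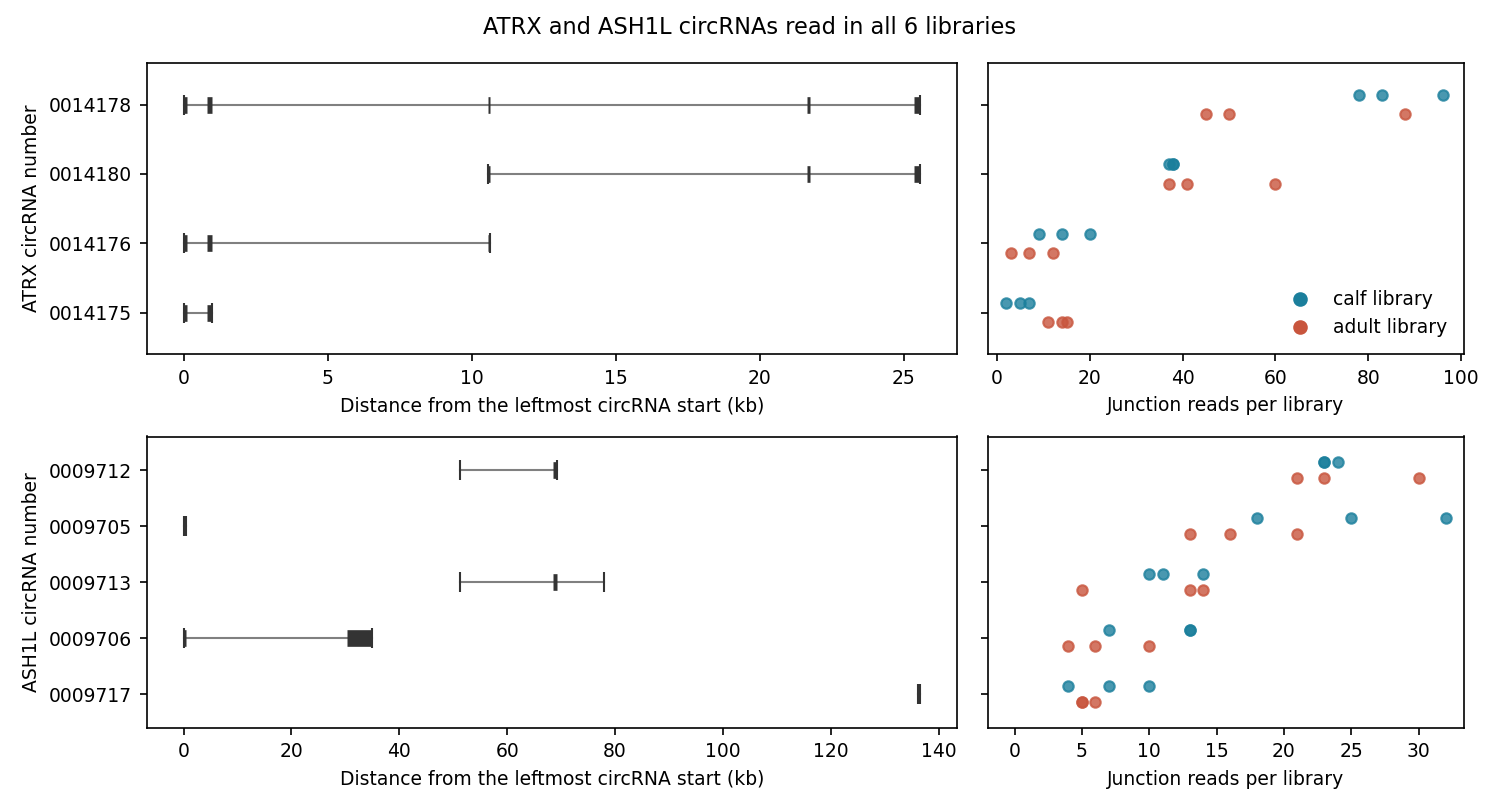
CircRNAs of ATRX and ASH1L read in all 6 libraries. Left panels show each circRNA from its start to its end as distance in kb from the leftmost start, with stretches outside the listed introns as dark blocks, and right panels show junction reads in each library. The ATRX rings share ends, novel_circ_0014178 is lower and novel_circ_0014175 higher in adults in CPM, and the ages of novel_circ_0009712 of ASH1L overlap.

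SMARCA5 codes for the ATPase of the ISWI complexes, which space nucleosomes. It had 91, 101 and 113 reads in calves and 112, 155 and 150 in adults, and ranked 27 of 4700. Calf 3 overlapped the adults in CPM, and the log2 change was 0.35 ± 0.21 (SE; 95% interval -0.10 to 0.81; edgeR adjusted p = 0.305). Unlike ATRX and ASH1L, it gave nearly all reads from 1 of 6 circRNAs. That ring, novel_circ_0003715, held 96.7% of them and lies on chromosome 17 (14553434 to 14553894). It spans 460 bases, of which 269 lie outside the listed intron in blocks of 120 and 149 bases. Its junction reads, 89, 99 and 113 in calves and 109, 147 and 141 in adults, outnumbered its non-junction reads, 5, 1 and 3 in calves and 5, 7 and 8 in adults, in every library. With a mean under 10 non-junction reads it did not enter the ratio test.

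The chromodomain helicases CHD1, CHD2 and CHD9 were tested and none was called. CHD2 had 29, 25 and 30 reads in calves and 16, 24 and 22 in adults, lower in every adult in CPM (log2 change -0.53 ± 0.30, SE; edgeR adjusted p = 0.276). CHD1 had 16, 18 and 18 reads in calves and 18, 31 and 14 in adults, with a log2 change of 0.17 ± 0.36 (SE) and overlapping ages. Its main ring, novel_circ_0012032 (chromosome 7, 100533488 to 100535350), held 81.7% of its reads, while the main CHD2 ring, novel_circ_0006115, held 41.8% of those of CHD2. CHD9 had 78 reads, and calf 3 with 4 stood below the other libraries at 11 to 22. CHD7 had 10 reads, 8 of them in adult 1.

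Of the subunits of the SWI/SNF complexes, which slide and evict nucleosomes, ARID2, ARID1A and SMARCC1 were tested and none was called. ARID2, a DNA-binding subunit of the PBAF form, had 20, 30 and 23 reads in calves and 9, 9 and 19 in adults. All adults were lower in CPM, 301 ± 153 against 647 ± 110 (SD, n = 3). The log2 change of -1.05 ± 0.39 (SE) had an unadjusted p of 0.02 but also missed the threshold (edgeR adjusted p = 0.0959). With 1 library left out, 1 of 6 fits passed, that without adult 3, the highest adult (-1.51, adjusted p = 0.022). The other 5 had adjusted p-values up to 0.293, and the smallest change was -0.78, without adult 2 (adjusted p = 0.284). Its main circRNA, novel_circ_0011079 (chromosome 5, 34505890 to 34509755), had 16, 13 and 18 reads in calves and 9, 9 and 16 in adults, with overlapping ages. A longer ring from the same start, novel_circ_0011080, had 4, 13 and 5 reads in calves and 0, 0 and 3 in adults and was not tested.

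ARID1A, a DNA-binding subunit of the BAF form, had 17, 17 and 12 reads in calves and 7, 16 and 17 in adults, with a log2 change of -0.30 ± 0.42 (SE), and 96.5% of its reads came from novel_circ_0009001 (chromosome 2, 127039208 to 127042698). SMARCC1, a core scaffold subunit, had 9, 13 and 10 reads in calves and 21, 9 and 9 in adults, and adult 1 stood apart. ARID1B had 21 reads and BPTF, a subunit of the NURF complex, 20, and neither was tested. The ATPase gene SMARCA2 had 2 reads in each adult and 0 in each calf, all below the 3-read floor. For SMARCA4, the alternative ATPase gene, no circRNA was listed.

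**Figure D5:**
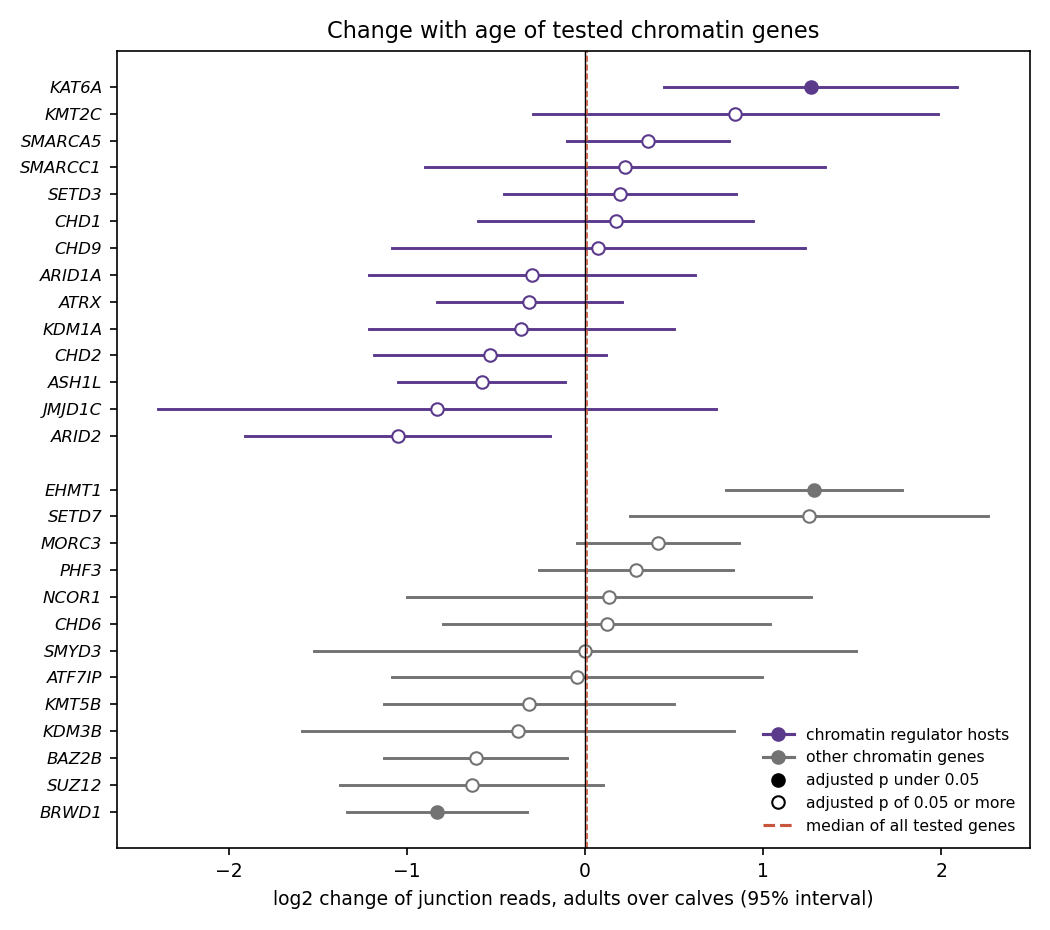
Log2 change of junction reads, adults over calves, with 95% intervals, for the 14 tested chromatin regulator hosts and 13 tested genes from a list of other chromatin genes. Filled points passed the test and the dashed line is the median of all tested host genes (0.01). KAT6A is the one filled point of the upper group, and EHMT1 and BRWD1 are filled in the lower group.

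The rings of the 33 genes mostly had no end inside a listed intron. The deposited exon and intron lists hold no feature under 150 bases, so a ring classed as intron only can still end in short exons. Of the 158 circRNAs, 112 were classed as exon and intron, 35 as intron only and 11 as exon only. No end fell inside a listed intron for 87.3% of them, against 90.3% of all circRNAs with a gene, and this held for 25 of the 35 classed as intron only. The SMARCA5 ring is such a case. The median span of the 158 was 6701 bases. For those with no end in a listed intron, the median length outside listed introns was 633 bases. It was 541 for such rings among all circRNAs with a gene.

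Reads were concentrated in few rings, and sites were often shared. Of the 158, 80 circRNAs (50.6%) were read in 1 library, against 56.1% of all circRNAs with a gene. Those with reads in each of the 6 libraries, 22 of the 158, made up 74.7% of the junction reads of these genes. For all circRNAs with a gene, rings seen in every library made up 64.6% of reads. By number such rings were 13.9% of the 158 and 9.1% of all circRNAs with a gene. Concentration in few rings was thus not particular to these genes. An end shared with another circRNA of the same gene was found for 63.3% of the 158, against 51.7% of all circRNAs of 1 gene. A ring can share an end only where its gene has another ring, and these shares were not matched for circRNAs per gene. In EZH2 all 4 circRNAs started at 112830051 on chromosome 4, and in KMT2C 4 of 9 started at 115514090 on the same chromosome. Rings of 1 gene that share a site are not independent measurements.

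Junction reads relative to non-junction reads could be tested for 21 circRNAs of 13 of the genes, those seen in every library given a non-junction mean of 10 or more. Of all 1070 circRNAs tested, 0.0935% were called, and of the 21 none was (limma). Besides KAT6A, 1 had an unadjusted p under 0.05, the ATRX ring novel_circ_0014176, with a log2 change of the ratio of -1.19 ± 0.51 (SE; adjusted p = 0.328). It had 9, 20 and 14 junction reads in calves and 7, 12 and 3 in adults. The median log2 change over the 21 was -0.40, with 5 above 0 and 16 below, against a median of -0.09 for all tested. Several of the 21 are rings of ASH1L or ATRX that share sites, so these directions are not independent and were not tested as a set.

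Other chromatin genes were read from a list of 129, matched after older symbols were updated, which was not done for the 41 genes. Of these 80 had a circRNA and 13 could be tested, with a median log2 change of 0.00. In adults 1 was higher and 1 lower, 15.4% of the 13, close to the 12.4% called among all tested host genes. EHMT1, which codes for the methyltransferase GLP, had 86, 120 and 93 reads in calves and 264, 299 and 211 in adults. Every adult was above every calf, and the log2 change was 1.29 ± 0.23 (SE; edgeR adjusted p = 0.00325), which passed without each library in turn. BRWD1, a bromodomain gene, had 94, 100 and 83 reads in calves and 45, 53 and 67 in adults. All adults were lower, and the log2 change was -0.83 ± 0.23 (SE; adjusted p = 0.0339). That call was lost with DESeq2 (0.0774), with no filter on low counts (0.0771) and in 4 of the 6 fits without 1 library: without calf 1 (0.101), calf 2 (0.104), adult 1 (0.13) or adult 2 (0.137). The next gene by p was SETD7, a lysine methyltransferase gene, with 6, 7 and 9 reads in calves and 11, 21 and 25 in adults, and a log2 change of 1.26 ± 0.46 that did not pass (adjusted p = 0.0939).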

How the data were processed

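Per the file headers, the authors deposited back-splice junction read counts for 14274 circRNAs in 6 libraries (35616 to 47298 reads), with an annotation table that adds counts of non-junction reads. Their table of age differences holds, per the file headers, log2 fold changes and raw and adjusted p-values. Per the submitters' processing notes, Trim Galore, TopHat2 2.0.14, TopHat and Cufflinks were used. Neither the circRNA caller nor the genome build is given in the sources used here, and coordinates are printed as deposited. Per the labels' protocols RNase R is described, but not for which libraries. A count of 1 does not occur in the table.

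The 41 genes, their classes, the 129 other chromatin genes and the marker lists were chosen with earlier results of these data known. CircRNAs of the 41 genes were matched by the symbols in the annotation as they stand. Those of the 129 other genes were matched after older symbols were updated from RefSeq, so the 2 lists follow unlike rules. Counts per circRNA, and their sums per host gene (circRNAs of several genes left out), were tested over the whole table with edgeR 4.0.16 (R 4.3.3): filterByExpr, TMM scaling, quasi-likelihood F test, age as the sole term, Benjamini-Hochberg adjustment, threshold 0.05. Standard errors were taken from the F statistic. Ratios, log2((junction + 0.5)/(non-junction + 0.5)), were centred per library and tested with limma 3.58.1. Scripts were tested on simulated data. Named are tested genes that passed, the 10 with the most reads, the 5 with the largest log2 change, and all others by count or range. Counting floors cover counting error only and take a 0 as no read. Alternatives were DESeq2 1.42.0, limma-voom, other scaling and filters, a replicate block and each library left out.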

Additional observations from a re-analysis of the deposited data

How the results depend on the processing

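Of 196 alternative values for the 14 tested host genes, 181 kept their direction and side of the threshold, as did 169 of 191 for the 15 tested circRNAs. KAT6A lost its call in 9 of its alternatives at each level. Among the 41 genes, the number of host genes called higher was 0 (1 in the reported fit) with no filter, a mean of at least 10 reads, DESeq2 or limma-voom, and the number of circRNAs called higher was 0 with no filter, a mean of at least 10 reads, DESeq2 or the replicate block. The number of their circRNAs called lower was 1 with no filter. Leaving out 1 library gave 0 to 1 in each of these. Deviations of same-numbered calf and adult libraries had correlations of -0.0492, 0.0759 and 0.0235, and those of the other pairs ran from -0.073 to 0.0422. With so few libraries and low counts, these values cannot show whether same-numbered libraries share a batch or a pairing. With the replicate block the KAT6A host gene had an adjusted p of 0.0372 and its circRNA 0.0972.

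Over all circRNAs, 57 higher and 69 lower became 97 and 105 with no filter and 27 and 29 with the replicate block; DESeq2 called 37 higher. Leaving out 1 library gave 34 to 67 higher and 35 to 71 lower circRNAs, and 24 to 59 higher and 31 to 65 lower host genes. For the ratio, the 1 lower call became 0 without a non-junction minimum, without centring and with the block, a pseudocount of 1 gave 1 higher call, and leaving out 1 library gave 0 to 12 higher and 0 to 23 lower.

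Single genes and circRNAs that reversed had reported log2 changes between -0.20 and 0.22. Without 1 library the host gene changes spanned -0.37 to 0.53 for SMARCC1 (below 0 without adult 1), -0.085 to 0.39 for CHD1 (below 0 without adult 2) and -0.32 to 0.72 for CHD9 (-0.01, -0.32 and -0.05 without calf 1, calf 3 and adult 3). ASH1L novel_circ_0009712 became -0.015 with total counts, -0.025 with no filter, -0.032 with a mean of at least 10, -0.0011 with limma-voom, -0.0012 with the block, and -0.038 to 0.13 without 1 library (below 0 without calf 1, calf 2, calf 3 or adult 2). ASH1L novel_circ_0009713 spanned -0.43 to 0.16 (above 0 without adult 3) and ATRX novel_circ_0014179 -0.76 to 0.45 (above 0 without calf 2, calf 3 or adult 3). The methyltransferase difference became -28.4 CPM with the circRNAs of ASH1L left out, and the acetyltransferase difference became -26.4 CPM without its most abundant circRNA. The cause was not tested. Low counts per library limit most of these genes, and 19 of the 33 could not be tested.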
